A study of Caenorhabditis elegans with 4 samples.

Results

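The MIX-1 peaks on chromosome IV are the regions of the series-wide peak list whose chromosome column reads IV. The rule took 316 of the 2705 regions in that list and used no measured value. The study mapped MIX-1 by ChIP-seq, in which protein crosslinked to DNA is pulled down with an antibody and the DNA is sequenced. All samples were mixed embryos of Caenorhabditis elegans N2, the wild-type reference strain, with males and hermaphrodites together and no allele or agent added. The labels list 2 ChIP libraries, for which a polyclonal rabbit antibody to MIX-1 was affinity-purified, and 2 input libraries, and region lists of the ChIP libraries alone were used here. The labels number the ChIP libraries as replicates 1 and 2 without saying whether they came from separate cultures, so their spread may be technical. Embryos of all stages were pooled, and the lists do not separate cell types, cell cycle stages or the sexes.

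MIX-1 is the nematode SMC2 protein, an ATPase subunit of condensin. Condensins are ring-shaped complexes that bind DNA and compact chromosomes for mitosis and meiosis. C. elegans also builds MIX-1 into a dosage compensation condensin, which represses both X chromosomes in hermaphrodites. Autosomal sites such as those on chromosome IV lie outside the chromosome on which that dosage compensation condensin is known to act. Chromosome IV is also known as the main home of the piRNA genes, which encode the short RNAs that guide the Piwi protein PRG-1 in the germline, and 14714 of the 15363 piRNA genes of the RefSeq gene table of assembly WBcel235 (95.8%) are on it.

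Positions are WormBase WS220 and 1-based, per the file headers. No genome sequence or gene annotation of WS220 was used here, so regions are given by position alone, without the genes, exons or sequence under them. Each region has a score from the authors' peak caller whose scale is not stated and differs between lists, so scores rank regions within a list. The depth of the libraries is unknown. Intervals and exact tests therefore cover only the counting of regions, which they take as independent although neighbouring regions may not be. In the series-wide and replicate 1 lists, counts per 1 Mb of IV varied more than those of independent, evenly placed regions would. The intervals may thus be too narrow and the p-values too low. A test across replicates would need more than the 2 libraries.

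Chromosome IV carried MIX-1 peaks at an autosomal density, well below that of X, and its place among the autosomes changed from list to list. The series-wide list had 18.1 peaks per Mb on IV (exact Poisson 95% interval 16.1 to 20.2) over a span of 17.5 Mb. Replicate 1 had 347 regions on IV, or 19.8 per Mb (17.8 to 22.04), and replicate 2 had 74, or 4.23 per Mb (3.32 to 5.31). By series-wide peaks X was 3.36 times as dense as IV (95% interval 2.96 to 3.82). The ratio was 2.43 in replicate 1 (2.14 to 2.76) and 3.91 in replicate 2 (3.02 to 5.12). The adjusted p-values of these exact binomial tests were 6.5e-94, 1.3e-47 and 1.4e-30, over 18 comparisons of IV with other chromosomes in the 3 lists.

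Against chromosomes I, II, III and V together, the density of IV was 0.900 times theirs in the series-wide list (0.794 to 1.02, exact binomial adjusted p = 0.170) and 0.810 times in replicate 2 (0.622 to 1.04, adjusted p = 0.171). In replicate 1 it was 1.17 times theirs (1.03 to 1.32, exact binomial adjusted p = 0.0315). The direction of this comparison was therefore opposite in the replicate lists, and IV went from the lowest density of all chromosomes in replicate 2 to the highest of the autosomes in replicate 1. Among single autosomes, chromosome III exceeded IV in the series-wide list, with 26.1 against 18.1 peaks per Mb (ratio of IV to III 0.692, 0.593 to 0.807, exact binomial adjusted p = 8.0e-06), whereas replicate 1 had 19.6 and 19.8 (ratio 1.01, 0.861 to 1.19, adjusted p = 0.903). Replicate 1 had IV above chromosome II by 1.29 times (1.09 to 1.53, exact binomial adjusted p = 0.00808) and above V by 1.28 times (1.09 to 1.49, adjusted p = 0.00607). The corresponding series-wide ratios, 1.08 (0.915 to 1.28, exact adjusted p = 0.426) and 1.02 (0.876 to 1.19, adjusted p = 0.835), did not pass the test.

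**Figure D1:**
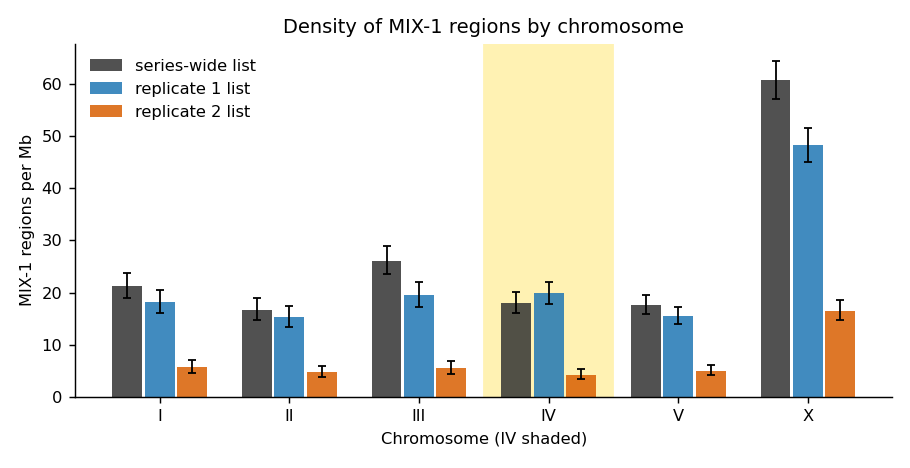
Regions per Mb on each chromosome in the 3 lists, with exact Poisson 95% intervals as bars and chromosome IV shaded. On IV the replicate 1 bar (19.8 per Mb) stands above the series-wide bar (18.1 per Mb), while X is the densest chromosome in each list.

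Peaks covered 117.6 kb of chromosome IV in the series-wide list, or 0.672% of its span, against 0.772% over the other autosomes and 2.33% on X. Replicate 1 regions covered 181.9 kb (1.04%) and replicate 2 regions 51.01 kb (0.292%). The peaks themselves were of ordinary autosomal width. Their median was 245.5 bp (middle 50% of peaks 188 to 335.5 bp) against 246 bp on the other autosomes and 283 bp on X, and 14 of the 316 (4.43%) exceeded 1 kb against 5.53% of the peaks of the other autosomes. Replicate 1 medians were 353 bp on IV and 352 bp on the other autosomes, and replicate 2 medians were 412 and 445 bp.

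In score, the IV peaks of the series-wide list had a median of 6.89 and a 90th percentile of 23.4, beside 6.86 and 26.3 on the other autosomes. Their highest score, 111.4, was below the highest of every other chromosome, which ran from 119.4 on V to 193.2 on II. Of the 316 peaks, 23 (7.28%, exact 95% interval 4.67 to 10.7) were among the highest-scoring 10.1% of all nuclear peaks, against 9.75% of the peaks of the other autosomes. In replicate 1, 29 of 347 (8.36%, 5.67 to 11.8) were among the highest-scoring 10% of the list, against 10.1% on the other autosomes. In replicate 2, 4 of 74 (5.41%, 1.49 to 13.3) were among the highest-scoring 10.1%, against 10.03%. Each of the 3 intervals included the share of the other autosomes, and no test of these differences was made. The median score of replicate 1 regions was 94.03 on IV and 115.6 on the other autosomes. In replicate 2 these medians were 112.7 and 118.1.

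The 11 highest series-wide scores on IV belonged to narrow peaks, most of them on the left side of the chromosome. The first was IV:390343-390682, 340 bp wide, with a score of 111.4 in the series-wide list, beside 1089 in replicate 1 and 305.8 in replicate 2. It ranked 30 among all nuclear peaks of the series-wide list. The second was IV:4725396-4725905, 510 bp wide, with 78.85, 834.4 and 225.1 in the same order. A neighbour at IV:4727854-4728207 scored 62.7, 647.1 and 229.0, and another at IV:4720499-4720798 scored 47.8, 396.1 and 99.7. These 3 peaks fell within 7.71 kb and all had a region in both replicates.

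IV:1659068-1659413 scored 71.5 in the series-wide list, beside 589.9 in replicate 1 and 206.7 in replicate 2. IV:4184753-4185043 had 68.8 in the series-wide list and a similar replicate 1 score of 590.9, but only 86.5 in replicate 2. IV:6756402-6756791 scored 62.7 in the series-wide list, beside 624.9 in replicate 1 and 88.2 in replicate 2. Taking the 12 highest series-wide scores among peaks with a region in both replicates, scores ran from 32.8 to 111.4 (median 58.1) in the series-wide list. They ran from 90.5 to 1089 (median 540.7) in replicate 1 and from 50.3 to 305.8 (median 164.2) in replicate 2. The others of these 12 were IV:13385978-13386376, IV:4390363-4390776, IV:1595841-1596203, IV:654784-655042 and IV:17249718-17249998, with series-wide scores of 53.4, 49.03, 48.6, 40.8 and 32.8. None of the 12 was wider than 510 bp or narrower than 259 bp.

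The 11 highest series-wide peaks of IV all overlapped a region in both replicates, and 9 of the 11 lay in the left 33.3% of the chromosome. The next 5, at scores of 34.2 to 40.1 and at 7.04, 9.32, 11.3, 16.8 and 16.9 Mb, overlapped replicate 1 regions of 391.4 to 425.0 but no region of replicate 2, and none of them lay in the left 33.3%. Replicate 2 regions were present again at the following 3 peaks, with series-wide scores of 32.8, 30.5 and 29.1 and replicate 2 scores of 171.05, 215.4 and 582.6, so overlap with replicate 2 did not end at a given score. These counts were made after the values had been seen. In no list did the left part hold most of a wider set of high scores. Of the 23 IV peaks among the highest-scoring 10.1% of nuclear series-wide peaks, 11 were left, 7 central and 5 right, in parts of equal length. Of the 29 replicate 1 regions in the highest-scoring 10% of that list, 9 were left, 13 central and 7 right. The 4 replicate 2 regions in the highest-scoring 10.1% were 2 left, 0 central and 2 right.

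The widest peaks of IV scored above its median in the series-wide list but below the narrow peaks just named, whereas in replicate 1 the highest scores of IV included wide regions. In the replicate 1 list, 45 nuclear regions scored 3100, 3 of them on IV. The highest nuclear score of that list, 3113, was only just above this and belonged to IV:4416409-4422089, a region of 5681 bp. Replicate 2 had nearly the same region, IV:4416407-4422104 (5698 bp), with a score of 376.0. The series-wide list divided it into 3 peaks of 4970, 148 and 193 bp, of which the widest scored 8.05 and ranked 1220 of the 2695 nuclear peaks. The boundaries of this region in the replicates differed by 2 bp at the left and 15 bp at the right, so the lists placed it alike and scored it differently.

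IV:3206314-3209494 (3181 bp) scored 19.9 in the series-wide list, beside 2749 in replicate 1 and 779.5 in replicate 2. IV:2828503-2830586 (2084 bp) scored 26.45, 3100 and 845.95, the last being the highest replicate 2 score on IV. IV:12316336-12319285 (2950 bp) scored 20.9 in the series-wide list and 3100 in replicate 1, but only 94.2 in replicate 2. The 8 series-wide peaks over 2 kb on IV had scores of 8.05 to 29.1, above the median of 6.89 for IV. All 8 were below all of the 12 narrow peaks named above. The 10 replicate 1 regions over 2 kb had a median score of 2831 but ranged widely, from 108.3 to 3113. Scores of 3100 recur in the replicate lists, and the files do not say if the caller set that value.

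**Figure D2:**
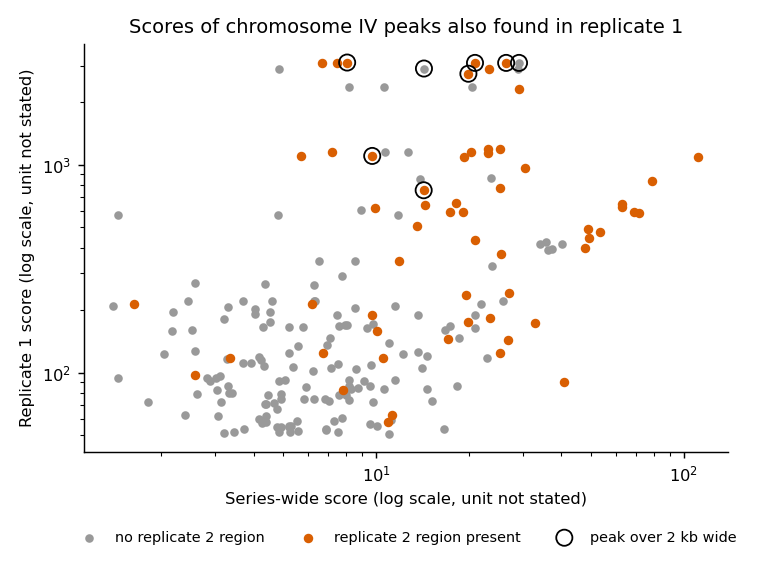
Replicate 1 score against series-wide score for the 212 chromosome IV peaks that overlap a replicate 1 region, both on log axes, coloured by the presence of a replicate 2 region and with peaks over 2 kb ringed. Peaks inside 1 wide replicate 1 region share its score and form rows. The ringed peaks lie at 755.1 or above on the replicate 1 axis, where some unringed peaks lie too, and do not pass 29.1 on the series-wide axis. The narrow peaks with the highest series-wide scores lie to the right.

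Across the 212 peaks of IV met in replicate 1, series-wide and replicate 1 scores had a Spearman rho of 0.475 and a Pearson r of 0.241. The same values were 0.428 and 0.381 over 809 peaks of the other autosomes and 0.669 and 0.721 over 710 peaks of X. Between the replicates, scores of the 60 shared replicate 1 regions on IV had a rho of 0.523 and an r of 0.533. These are descriptions across regions that share libraries and lists. Width went with score on IV in each list, with a rho of 0.514 for series-wide peaks, 0.694 for replicate 1 and 0.657 for replicate 2.

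The group with the most peaks on IV was present in replicate 1 and absent from the replicate 2 list. Series-wide peaks were chained into groups where the gap to the next was at most 10 kb, and the largest group on IV held 9 peaks between 8565670 and 8581703, covering 47.9% of 16.03 kb. All 9 overlapped replicate 1 regions, 6 in number with scores of 58.4 to 2913, and replicate 2 had no region there. The 3 strongest replicate 1 regions of the group were IV:8575332-8578124 with 2913, IV:8578205-8581692 with 2385 and IV:8572627-8574139 with 1153. The other replicate 1 region of IV that scored above 1000 without a replicate 2 region was IV:11070873-11075984 (5112 bp, score 3100), which is also the widest series-wide peak of the chromosome (5046 bp, score 29.1). In all, 4 of the 17 replicate 1 regions of IV at or above 1000 had no replicate 2 counterpart (23.5%, exact 95% interval 6.81 to 49.9). The other autosomes had 5 of 72 (6.94%, 2.29 to 15.5), and X had 3 of 49 (6.12%, 1.28 to 16.9). Of those 5, 4 were on chromosome V, whose share of 4 of 19 (21.1%, 6.05 to 45.6) was close to that of IV. The 4 regions of IV stand at 2 places, so they are not 4 independent sites. The groups at 7485823 to 7488287, with 4 peaks, and at 8252963 to 8257776, with 3 peaks, were likewise met in full by replicate 1 and not at all by replicate 2.

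Other groups were smaller. The second held 6 peaks between 11610696 and 11615477 with series-wide scores of 3.25 to 9.64, the next 5 peaks between 16382337 and 16399273 with 2.74 to 9.16, and 3 more held 4 peaks each, at 11025832 to 11036586, at 7485823 to 7488287 and at 8399876 to 8412806. Replicate 2 met 1 peak in the group that starts at 11025832, 1 in the group that starts at 8399876 and none in the others of these 5. Size did not order the groups by score: the group of 9 reached a series-wide score of 23.7, while the group that starts at 11025832 reached 25.4. The 3 peaks around 4.72 Mb described above ran from 47.8 to 78.85 and were met in full by both replicates.

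For the series-wide peaks of IV, none of 3 tested shares of overlap with the replicates at 1 bp or more passed the test against the other autosomes. Of the 316 peaks, 212 (67.1%) met a replicate 1 region, against 64.2% of all nuclear peaks and 62.1% of those of the other autosomes (Fisher's exact adjusted p = 0.146). Replicate 2 met 67 (21.2%), against 25.6% of all nuclear peaks and 26.6% on the other autosomes (Fisher's exact adjusted p = 0.0914). Both replicates met 58 (18.4%), against 22.3% of all nuclear peaks and 22.3% on the other autosomes (Fisher's exact adjusted p = 0.149). Among single autosomes, III was slightly below IV in these last shares, with 20.6% of its peaks met by replicate 2 and 18.1% by both. Replicate 1 alone met 154 (48.7%, exact 95% interval 43.1 to 54.4), against 41.9% of all nuclear peaks and 39.8% on the other autosomes (37.1 to 42.5). These intervals do not overlap, and this class was not tested. Replicate 2 alone met 9 (2.85%), against 3.3% of all nuclear peaks and 4.22% on the other autosomes, and neither met 95 (30.1%), against 32.5% and 33.7%. The median series-wide scores of the peaks met by both, by replicate 1 alone, by replicate 2 alone and by neither were 19.9, 6.30, 6.66 and 5.57.

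The 3 strongest IV peaks met by neither replicate were IV:15471448-15471689 with a score of 17.99, IV:5209434-5209739 with 16.9 and IV:13788712-13788911 with 12.03. They ranked 500, 534 and 781 among the nuclear peaks of the series-wide list. At matched score, the share of IV peaks met by replicate 2 was 59.7% (40 of 67) in the highest-scoring 25% of the nuclear list, beside 65.9% on the other autosomes and 69.3% on X. In the next 25% it was 17.1% (14 of 82), beside 24.4% and 19.2%, and in the one below that 9.76% (8 of 82), beside 10.2% and 5.16%. In the lowest 25% it was 5.88% (5 of 85), beside 7.27% and 3.33%. For replicate 2, IV was thus below the pooled other autosomes in each of these 4 score classes, which were not separated by single autosome. For replicate 1 the order was opposite in each class. From the highest class to the lowest, replicate 1 met 94.0%, 67.1%, 56.1% and 56.5% of IV peaks. On the other autosomes it met 90.1%, 59.1%, 49.9% and 50.3%. No test was made of these classes.

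Read in the other direction, chromosome IV stood below the pooled other autosomes in all 4 tested shares, and 3 of the 4 differences passed the test. Of the 347 replicate 1 regions on IV, 204 (58.8%) met a series-wide peak, against 73.5% of all nuclear replicate 1 regions, 69.9% on the other autosomes and 84.2% on X (IV against the other autosomes, Fisher's exact adjusted p = 0.00116). Replicate 2 met 60 of the 347 (17.3%), against 26.7% of all nuclear replicate 1 regions and 26.7% on the other autosomes (Fisher's exact adjusted p = 0.00116). Of the 74 replicate 2 regions on IV, 62 (83.8%) met a series-wide peak, against 94.6% of all nuclear replicate 2 regions and 93.8% on the other autosomes (Fisher's exact adjusted p = 0.0183). That difference was not past the threshold at 50% overlap, with 81.1% against 86.7% (Fisher's exact p = 0.204), and in the higher-scoring 50% of replicate 2 regions the shares were 100% and 98.9%. Replicate 1 met 60 of the 74 (81.1%), against 85.4% of all nuclear replicate 2 regions and 82.9% on the other autosomes (Fisher's exact adjusted p = 0.736). In this last share chromosome V was below IV, at 74.3% (78 of 105). These 4 tests were added after the overlaps had been seen, and the p-values were adjusted over them and the 3 above.

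**Figure D3:**
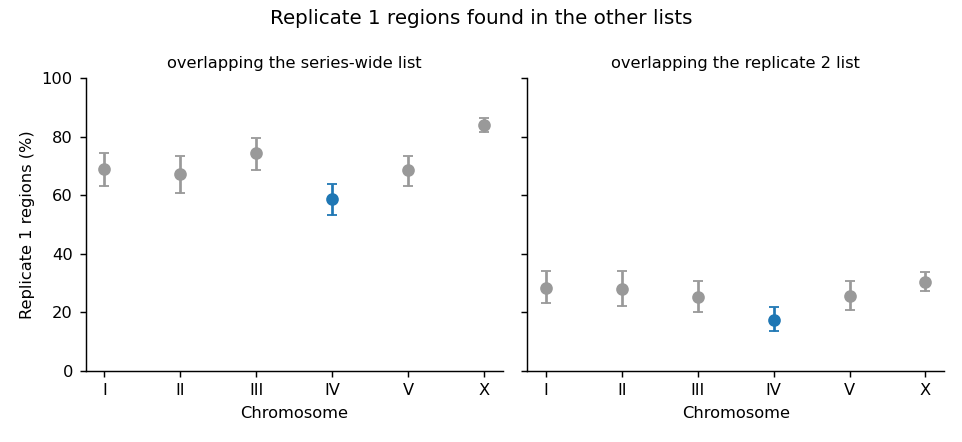
Share of replicate 1 regions on each chromosome that overlap the series-wide list (left) and the replicate 2 list (right), with exact 95% intervals. Chromosome IV, in blue, has the lowest share in both panels, at 58.8% and 17.3%.

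Lower replicate 1 scores on IV moved with this difference: 180 of the 347 replicate 1 regions of IV scored below 100 (51.9%, exact 95% interval 46.5 to 57.2), against 476 of 1103 on the other autosomes (43.2%, 40.2 to 46.1), and low scores were met less often. Within each of 5 classes of replicate 1 score, the share met by the series-wide list was lower on IV than on the other autosomes, and so was the share met by replicate 2. From 100 to 200, for example, 55 of 92 regions of IV met a series-wide peak (59.8%, exact 95% interval 49.04 to 69.9) against 224 of 299 on the other autosomes (74.9%, 69.6 to 79.7). At 500 and above, 35 of 36 IV regions met a series-wide peak (97.2%) and 27 of 36 met replicate 2 (75%, 57.8 to 87.9), against 87.1% (80.2 to 92.3) on the other autosomes. Among the higher-scoring 50% of the replicate 1 list, IV stayed below the other autosomes for the series-wide list, at 78.4% against 86.1% (Fisher's exact p = 0.0346), while for replicate 2 the values were 37.4% and 44.9% (p = 0.125).

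The replicate 1 regions of IV with no series-wide peak numbered 143 and included strong ones. The first was IV:688743-692641, a region of 3899 bp with a score of 622.4 and no replicate 2 region. Further replicate 1 regions followed it closely up to position 698263, also without a series-wide peak or a replicate 2 region. The 143 regions are therefore not all separate sites. The second by score, IV:1-180, lies at the left end of the chromosome with a score of 464.7. Replicate 2 also had a region there, IV:1-237, with a score of 95.1, whereas the series-wide list began at 17264. The left ends of chromosomes I, II, V and X each carried a series-wide peak, and that of III did not. At the right end of IV a peak at IV:17492428-17492975 was present in all 3 lists, with scores of 17.3, 595.1 and 115.0, and a last peak at IV:17493456-17493824 scored 8.90 in the series-wide list alone. The third replicate 1 region without a series-wide peak was IV:14781203-14781511, with 403.3 in replicate 1 and 62.7 in replicate 2. Of the 12 replicate 2 regions of IV without a series-wide peak, the first by score was IV:15059081-15059493 with 97.3, and IV:13847340-13847587 had 89.3; neither had a replicate 1 region.

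Along the chromosome, peaks were present in every 1-Mb stretch. The 17 full bins of the series-wide list held 18 ± 6.76 peaks (mean ± SD over bins, range 8 to 32), those of replicate 1 held 19.8 ± 7.34 (11 to 34) and those of replicate 2 held 4.24 ± 1.39 (2 to 7). The bins with the most series-wide peaks were 11 to 12 Mb with 32 and 8 to 9 Mb with 31, the second of which contains the group of 9 peaks. The fewest were 8 peaks from 10 to 11 Mb and 9 from 5 to 6 Mb. Replicate 1 was also highest at 11 to 12 Mb, with 34 regions, followed by 30 at 4 to 5 Mb and 30 at 13 to 14 Mb. Over the 17 bins, series-wide counts had an r of 0.789 with replicate 1 and 0.139 with replicate 2, as a description of bins from the same libraries. The variance of replicate 2 counts over bins was 0.458 times their mean on IV, below the values of 1.11 to 2.28 on the other chromosomes, so its few regions were spread more evenly there, without a test. For the series-wide list the variance was 2.54 times the mean on IV and 2.44 to 7.42 times on the other chromosomes. For replicate 1 these values were 2.72 and 1.31 to 9.36.

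**Figure D4:**
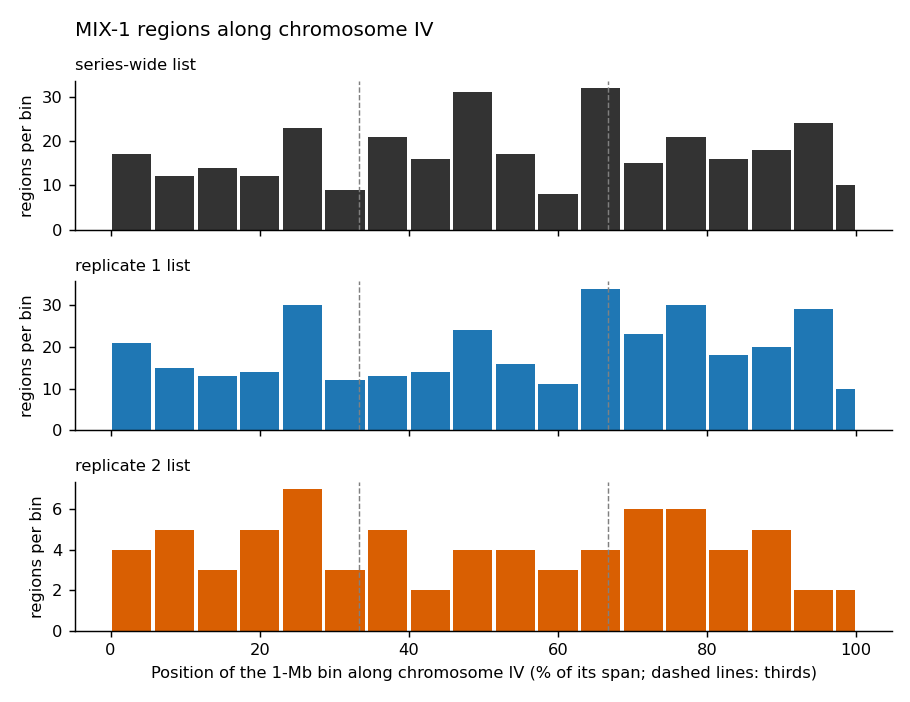
Number of regions in each 1-Mb bin along chromosome IV in the 3 lists, with position as a percentage of the span and dashed lines at 33.3% and 66.7%; the last bin is 0.494 Mb long. The highest series-wide and replicate 1 counts, 32 and 34, fall in the same bin, while replicate 2 counts stay between 2 and 7.

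The central 33.3% of the chromosome held 38.9% of the series-wide peaks of IV (123 of 316, exact 95% interval 33.5 to 44.5, exact binomial p = 0.0368) but 31.99% of the replicate 1 regions (exact p = 0.609) and 29.7% of those of replicate 2 (exact p = 0.540). After merging of peaks within 10 kb the series-wide share was 34.1% (exact p = 0.832). The excess in the centre of IV was thus not present in the replicate lists. The central shares of series-wide peaks were also above 33.3% on III, at 40% (exact p = 0.00852) and on V, at 38.6% (exact p = 0.0315), beside 35.2% on II, 28.75% on I and 29.1% on X. These p-values are unadjusted. The left and right sides, divided at the middle of the span, held 151 and 165 series-wide peaks (ratio 0.915, 0.729 to 1.15, exact binomial p = 0.465). In the stretches from 5 to 7 Mb and from 14 to 17 Mb, taken from general knowledge as lying within the 2 broad domains of piRNA genes, the series-wide list had 17.6 peaks per Mb (88 peaks) against 18.2 per Mb in the rest of the chromosome. The ratio was 0.964 (0.745 to 1.24, exact binomial p = 0.804), 0.902 in replicate 1 (0.702 to 1.15, exact p = 0.406) and 0.863 in replicate 2 (0.484 to 1.48, exact p = 0.700). No difference was detectable within these intervals.

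Overlap with replicate 2 was more frequent in the left part of IV. Replicate 2 met 29 of the 86 series-wide peaks in the left 33.3% of IV (33.7%, exact 95% interval 23.9 to 44.7), 20 of 123 in the centre (16.3%, 10.2 to 24.0) and 18 of 107 in the right part (16.8%, 10.3 to 25.3). The left part against the rest gave a Fisher's exact adjusted p of 0.0281, in a test added once these values were known and adjusted over 24 such tests on 6 chromosomes. All 24 compared the left part with the rest, so the adjustment does not cover the choice of that part. Replicate 1 regions did likewise, with replicate 2 meeting 26.2% on the left and 13.5% on the rest (Fisher's exact adjusted p = 0.0469). Both tests draw on the same list of replicate 2 regions, so they are not independent. Median series-wide scores were 7.72 on the left, 6.48 in the centre and 6.50 on the right. Overlap of series-wide peaks with replicate 1 did not pass the test, at 66.3%, 65.04% and 70.1% (left against the rest, Fisher's exact adjusted p = 1). Nor did overlap of replicate 1 regions with the series-wide list, which was 54.4% on the left, 67.6% in the centre and 54.9% on the right (left against the rest, Fisher's exact adjusted p = 0.684). Besides the 2 tests on IV, 2 of the 24 passed: on II, replicate 1 regions of the left part met the series-wide list less often, at 52.8% against 73.9% (Fisher's exact adjusted p = 0.0281), and on V, series-wide peaks of the left part met replicate 1 more often, at 75% against 59.8% (adjusted p = 0.0469). Chromosome III had the same order of shares, at 29.1%, 15.97% and 17.9%, and its test missed the threshold (Fisher's exact adjusted p = 0.0507). The difference on IV was not tested against that of any other chromosome.

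**Figure D5:**
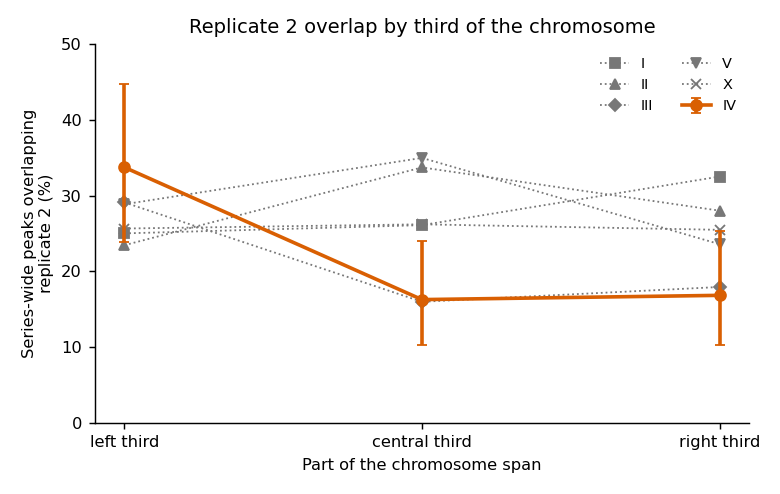
Share of series-wide peaks that overlap a replicate 2 region in the left, central and right parts of equal length of each chromosome, with exact 95% intervals for IV. On IV the share goes from 33.7% on the left to 16.3% and 16.8%, as on III, while the other chromosomes stay at 23.4% or above.

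By distance to the nearest peak, series-wide peaks of IV stood farther apart than those of the other chromosomes, with chromosome II close. The median distance to the nearest peak was 13.1 kb, against 11.3 kb on II, 7.43 kb on V, 6.98 kb on I, 4.68 kb on X and 2.77 kb on III. Between successive peaks the median gap was 34.2 kb on IV and 33.97 kb on II. Chromosome II also had fewer peaks per Mb (16.7 against 18.1) and a smaller share within 1 kb of another (21.3% against 23.7%). Grouping at 10 kb left 168 of the 316 peaks alone and put 148 (46.8%) into groups, against 47.8% to 62.5% on the other autosomes and 72.5% on X. Chromosome III, for comparison, had 1 group of 49 peaks. Replicate 2 gave the same picture, with 82.3 kb to the nearest region on IV and 16.2 to 54.6 kb elsewhere. Replicate 1 did not: its regions on IV lay 4.49 kb from the nearest, the shortest of all chromosomes, with 40.1% within 1 kb of another region, and its 32 groups of 3 or more regions on IV exceeded the 18 of the series-wide list. No test was made on these distances.

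The longest stretches of IV without a series-wide peak ran from 9620811 to 10175090 (554.3 kb) and from 3524951 to 4049489 (524.5 kb), followed by 5394914 to 5691148 (296.2 kb). The other chromosomes had no empty stretch between peaks above 382.7 kb in this list. These 3 stretches were not empty in replicate 1, which had 2, 3 and 1 regions in them, and replicate 2 had 1 region in the first and 0 in the others.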

How the data were processed

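The files hold 3 deposited lists of regions, 1 per ChIP library and 1 for the whole series. Per the submitters' processing notes, reads were aligned with BWA to ce10, and per the file headers coordinates are WormBase WS220. The source columns of the deposited files name MACS for the replicate lists and MACS v2 for the series-wide list. No source used here gives the parameters, the controls or how the libraries were combined. Each deposited region has a score from the authors' caller, of unstated scale. Spans are the highest region ends over the lists. Overlap required 1 bp. Densities were compared by two-sided exact conditional binomial tests, and shares by Fisher's exact test or exact binomial tests, with Benjamini-Hochberg adjustment within each family (Python 3.11.15, scipy 1.17.1). The tests were checked only on simulated independent counts, so that check does not cover regions that cluster. Named peaks are the 12 of IV with the highest series-wide score found in both replicates, the 5 largest groups, the 3 widest peaks, the 3 longest empty stretches, and the 3 highest-scoring regions missing from the other lists; others were named after their values were seen. The chromosome and all lists were chosen with earlier results of these data known. Only gene numbers per chromosome were taken from the WBcel235 table, and mitochondrial regions were left out.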

Additional observations from a re-analysis of the deposited data

How the results depend on the processing

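The excess of X over IV kept its direction and passed the test under every alternative tried, with ratios of 2.35 to 4.29. The ratio of IV to the other autosomes ran from 0.810 to 1.17 over the replicate lists alone. It was 0.740 (exact p = 0.036) among peaks found in both replicates, 1.04 after merging within 10 kb and 1.03 with protein-coding genes in place of the span. Without chromosome III, an alternative added after seeing the data, it was 0.980. The central share of IV peaks was past the threshold as reported and with regions over 2 kb left out. It was 31.99% and 29.7% in the replicate lists alone, 29.3% among peaks found in both, 35.6% in the higher-scoring 50% of the list, 35.4% after merging within 1 kb, 34.1% after merging within 10 kb, and 53.8% for the central 50%. The ratio of the left to the right side was 1.01 in the higher-scoring 50% and 1.42 among peaks found in both, and the piRNA ratio was 1.01 after merging within 10 kb, none of them past the threshold.

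In the higher-scoring 50% of each list, replicate 2 met 36.2% of series-wide IV peaks, now past the threshold against 45.8% (exact p = 0.035), and 37.4% of replicate 1 regions, no longer past it. There, 100% of replicate 2 regions of IV met the series-wide list and 94.6% met replicate 1, both above the other autosomes (98.9% and 91.4%). At 50% overlap 81.1% of replicate 2 regions met the series-wide list, no longer past the threshold. The cause of these changes was not tested. Thresholds here refer to unadjusted p-values. The lower overlap of replicate 1 regions of IV with the series-wide list passed under the 3 alternatives tried, at 46.4% to 78.4%. None of these alternatives merged neighbouring regions, which the test counted separately. In replicate 1, 40.1% of the regions on IV lay within 1 kb of another, against 26.2% to 38.5% on the other autosomes. No paired analysis was possible because the input libraries have no region list used here and the ChIP libraries form 1 group. Depth is unknown, so regions missing from the shorter replicate 2 list cannot be read as absent binding.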
